A study of Mus musculus with 30 samples.

Results

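Collagens are the triple-helical proteins of the extracellular matrix, and each is built from 3 alpha chains, alike or different, each kind of which has its own gene. The chains described here are the features of an Affymetrix mouse expression array (MOE430A) whose annotation gives a single gene symbol of the form Col, number, a, number. This rule found 58 probe sets, a probe set being the group of short oligonucleotides that reads 1 transcript, out of 22626 used. They stand for 36 chain genes, of which 17 have 1 probe set and 19 have several. Of 45 chain genes listed for the mouse, 9 had no such probe set, namely Col6a4, Col6a5, Col6a6, Col8a2, Col21a1, Col23a1, Col24a1, Col27a1 and Col28a1, and their transcripts were not analysed here. The arrays measured total RNA, prepared with Trizol, of newborn kidney, stomach, salivary tissue, liver and brain from mice that were wild type or null for ERRγ (gene Esrrg), an orphan nuclear receptor. There were 3 arrays for each tissue and genotype, 30 in all. Both genotypes were on a mixed SV129/C57BL/6 background, with the sex given as unknown, fed standard chow and given no treatment. The labels describe neither how the null allele was made nor the cells in which the gene is deleted, and nothing in them ties each array to its own animal, so that the p-values measure the spread between these arrays, which may be technical. Arrays of 1 genotype and number may share an animal or pool across tissues: Xist, the RNA of the inactive X chromosome, read 10.68 to 11.38 in all 5 tissues for wild-type numbers 1 and 2 and null numbers 2 and 3, and 6.34 to 7.22 for wild-type number 3 and null number 1. Each genotype thus held 2 numbers of high and 1 of low Xist.

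Fibrillar collagens (Col1a1 and Col1a2 of type I, Col2a1, Col3a1, and the type V and XI chains) form the banded fibres of connective tissue. Type IV chains form the sheet of the basement membrane, in which the Col4a1 and Col4a2 chains occur in nearly all tissues while Col4a3, Col4a4 and Col4a5 build the mature network of the kidney glomerulus. Type VI chains form beaded microfilaments around cells, the fibril-associated chains (FACIT) decorate fibres, the multiplexins Col15a1 and Col18a1 lie in the basement membrane zone, Col7a1 forms anchoring fibrils and Col17a1 is a transmembrane chain of the hemidesmosome of stratified epithelia. By probe sets and genes the array held 17 and 9 for fibrillar chains, 17 and 9 for FACIT, 9 and 6 for basement membrane chains, 4 and 3 for type VI, 3 and 2 for multiplexins, 3 and 3 for transmembrane chains, 3 and 2 for the network-forming Col8a1 and Col10a1, and 1 and 1 each for Col7a1 and Col26a1.

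Several of these genes lie next to each other in the mouse genome (GRCm38.p6): Col4a1 beside Col4a2, Col4a3 beside Col4a4 and Col4a5 beside Col4a6 are transcribed away from each other, and Col3a1 neighbours Col5a2. In the RefSeq promoter windows, which run from 250 bases before a gene's start to 50 after it, 27 of the 36 chain genes had an entry, with 30 windows in all. The starts of Col4a1 and Col4a2 lie 21 bases apart, and those of Col4a5 and Col4a6 lie 1343 bases apart. The stretch that holds the Col4a1 and Col4a2 starts is shown because these partner chains had, of the pairs compared below, the relation with the smallest p, and the plus strand of chr8:11312801-11312830 is given with the bases from one start to the other in capitals.
Col4a1/Col4a2: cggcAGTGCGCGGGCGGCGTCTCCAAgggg
The 250 bases before the start are given for Col1a2 and Col3a1, fibrillar chains with like tissue profiles, and for Col17a1, a chain at high levels in only stomach and salivary tissue. Capitals mark matches, searched on both strands, to 3 promoter motifs. The first is TATAAA, to which the TATA-binding protein binds. The second is CCAAT, the motif of nuclear factor Y. The third is GGGCGG, the motif of Sp1. None of these matches overlaps another, and the windows are chr6:4505368-4505617 (plus strand), chr1:45311288-45311537 (plus strand) and chr19:47692043-47692292 (minus strand).
Col1a2: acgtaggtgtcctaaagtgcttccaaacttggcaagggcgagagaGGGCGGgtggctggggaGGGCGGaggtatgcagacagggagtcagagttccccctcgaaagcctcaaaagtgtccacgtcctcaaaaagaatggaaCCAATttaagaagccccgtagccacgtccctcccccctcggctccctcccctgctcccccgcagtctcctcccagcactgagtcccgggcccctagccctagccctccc
Col3a1: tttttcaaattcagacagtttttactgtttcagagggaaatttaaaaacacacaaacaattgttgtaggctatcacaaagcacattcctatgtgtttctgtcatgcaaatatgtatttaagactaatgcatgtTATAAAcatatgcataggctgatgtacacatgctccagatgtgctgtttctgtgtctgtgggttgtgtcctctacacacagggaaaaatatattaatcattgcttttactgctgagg
Col17a1: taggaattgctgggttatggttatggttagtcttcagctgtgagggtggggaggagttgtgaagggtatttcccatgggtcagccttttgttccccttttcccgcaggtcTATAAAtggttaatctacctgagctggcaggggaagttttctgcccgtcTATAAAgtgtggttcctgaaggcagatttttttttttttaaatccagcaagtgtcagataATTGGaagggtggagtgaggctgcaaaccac
Over whole 300-base windows, TATAAA was found in 5 of 30 chain windows (16.7%) against 13.6% of all 32851 windows, CCAAT in 12 (40%) against 37.4%, and GGGCGG in 17 (56.7%) against 35.7%. Col1a2 holds CCAAT and GGGCGG and Col3a1 holds TATAAA alone, although both chains followed the same order of tissues. A match of letters is a description of the window, not a binding site.

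The 30 arrays had medians of log2 signal between 5.80 and 6.08. The single Esrrg probe set read between 5.89 and 6.76 on all arrays and was not lower on the arrays labelled null: their mean differed from wild type by -0.03 to 0.49, and in stomach all 3 null arrays (6.39 to 6.56) lay above the wild-type arrays (5.93 to 6.03). The labels do not say how the null was checked, and the sources used here do not place it inside or outside the deleted part, so the labels could not be checked with it and every direction below rests on them. Tissue markers matched the labelled tissue, with stomach, kidney, salivary, neuronal and hepatocyte marker sums each highest in their own tissue. Some arrays stood apart from the rest. Null brain array 1 carried skeletal muscle and pituitary transcripts and the salivary transcript Bpifa2. Wild-type stomach arrays 2 and 3 carried more hepatocyte transcripts. Their log2 summed marker signal was 12.4 and 13.9, against 11.3 on array 1 and 10.98 to 11.59 on the null arrays. The 3′ minus 5′ control gap, a sign of RNA degradation, was 3.22 ± 0.34 in null stomach against 2.08 ± 0.43 in wild type (SD, n = 3). Null salivary arrays had more skeletal muscle transcripts than wild type (8.7 to 9.7 against 6.9 to 7.0). Brown fat transcripts were higher on the null salivary arrays and wild-type array 3 (12.04 to 13.54 and 12.75) than on wild-type arrays 1 and 2 (8.90 and 9.02). In whole tissue, fewer cells of a type and less RNA per cell cannot be told apart.

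The first question was which chains each newborn tissue used. Among the wild-type arrays, 48 of the 58 chain probe sets differed between the 5 tissues (limma F test, adjusted p under 0.05 over all probe sets), 82.8% beside 72.1% of all probe sets. Stomach, and after it salivary tissue, most often had the highest chain signal when counted by probe set. Of the 48, the mean was highest in stomach for 22, in salivary tissue for 13, in kidney for 6, in liver for 4 and in brain for 3. Counted by gene, 30 genes passed. Of these, 14 were highest in stomach, 6 in salivary tissue, 6 in kidney, 3 in liver and 1 in brain. Among all probe sets that passed the same test, 12.8% were highest in stomach, 19.1% in salivary tissue, 15.6% in kidney, 21.2% in liver and 31.4% in brain. At the other end, 22 of the 48 were lowest in brain and 18 in liver (26.8% and 33.3% of all that passed), 6 in stomach and 2 in kidney (17.3% and 10.6%), and none was lowest in salivary tissue (12% of all). A level in 1 tissue above each of the other 4 in pairwise limma tests was reached by 11 chain probe sets in stomach, 6 in salivary tissue, 3 in kidney, 2 in liver and 0 in brain, where 3.17%, 4.2%, 2.7%, 7.25% and 11.6% of all probe sets reached it.

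The tissues were also compared in pairs. Of the 58 chain probe sets, 32 were lower and 8 higher in brain than in stomach, where 22.1% and 25.9% of all probe sets were. Against salivary tissue, brain had 32 lower and 1 higher (23.3% and 22.1% of all), and against kidney 31 lower and 6 higher (22.1% and 19.7%). Between brain and liver, 14 chain probe sets were higher in brain and 11 lower (29.9% and 23%). Stomach exceeded liver in 32 and was lower in 4 (25.8% and 20.3% of all), kidney exceeded liver in 30 and was lower in 3 (27.8% and 16.5%), and liver exceeded salivary tissue in 2 and was lower in 35 (15.2% and 26.5%). Kidney was lower than stomach in 25 and higher in 10 (10.8% and 13.3%) and lower than salivary tissue in 22 and higher in 8 (14.3% and 16.2%). Stomach was higher than salivary tissue in 17 and lower in 12 (14% and 17.7%). The median chain differed by -1.27 between brain and stomach, by 1.26 between stomach and liver and by 0.01 between stomach and salivary tissue, where the median of all probe sets differed by 0.17, -0.02 and -0.13.

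**Figure D1:**
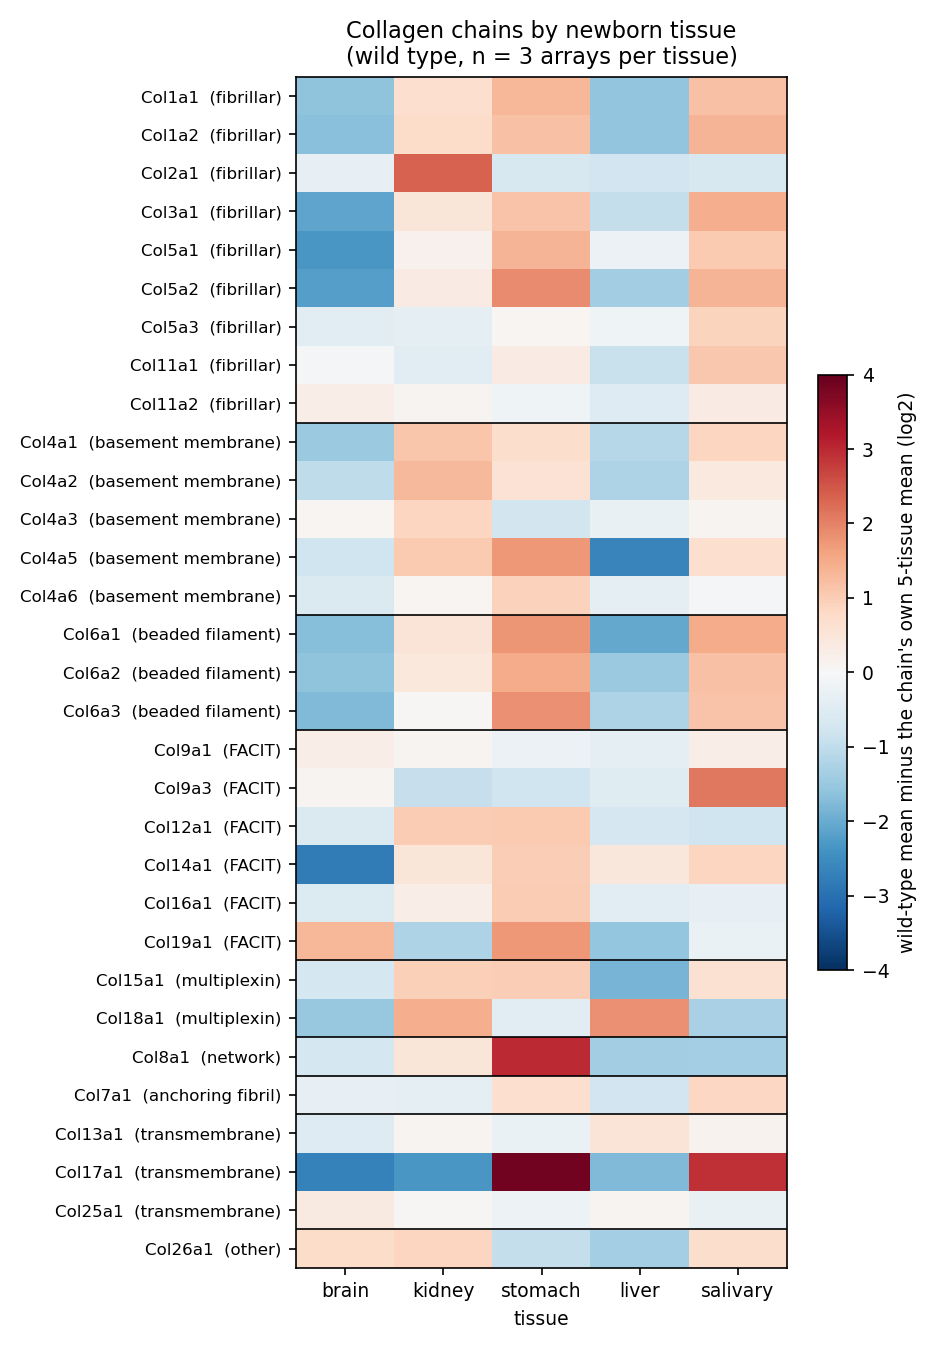
Wild-type mean of each of 31 collagen chains (rows, grouped by class) in each tissue (columns, n = 3 arrays each), as the log2 difference from the chain's own mean over the 5 tissues; 1 probe set is drawn per gene. Type I, III, V and VI chains are red in stomach and salivary tissue and blue in brain and liver, whereas Col18a1 is red in liver and kidney and Col17a1 in stomach and salivary tissue.

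The chains of interstitial fibres had their high levels in the same tissues. Col1a2, on the log2 scale, read 12.27 ± 0.14 in salivary tissue, 12.08 ± 0.12 in stomach, 11.65 ± 0.01 in kidney, 9.32 ± 0.31 in liver and 9.25 ± 0.11 in brain (mean ± SD, n = 3 wild-type arrays). Stomach and salivary tissue did not differ beyond the error (0.19 ± 0.13 SE, adjusted p = 0.287, limma), nor did liver and brain (0.07, adjusted p = 0.697), while kidney exceeded liver by 2.33 (adjusted p = 1.35e-09). Col1a1, its partner in type I collagen, read 9.97 ± 0.48 in stomach, 9.80 ± 0.24 in salivary tissue, 9.32 ± 0.05 in kidney, 7.06 ± 0.21 in liver and 7.03 ± 0.17 in brain, and likewise did not separate stomach from salivary tissue (adjusted p = 0.53) or liver from brain (adjusted p = 0.921). Col3a1, the chain of type III collagen, was highest in salivary tissue at 12.04 ± 0.07, above stomach by 0.29 ± 0.09 (adjusted p = 0.0188), and fell to 11.07 ± 0.07 in kidney, 9.63 ± 0.08 in liver and 8.5 ± 0.17 in brain. Each step of that order passed the test. Col5a2, a type V chain that co-assembles with type I, separated all 5 tissues at each step, from 10.49 ± 0.05 in stomach through 9.95 ± 0.05 in salivary tissue, 8.92 ± 0.12 in kidney and 7.20 ± 0.04 in liver to 6.40 ± 0.08 in brain. Col5a1 departed from its type V partner in liver, where it read 8.59 ± 0.23, 2.09 above brain (adjusted p = 4.74e-09); the Col5a2 difference between the same tissues was 0.80. The 3 type VI genes were also highest in stomach, Col6a1 reading 11.33 ± 0.19 in stomach, 11.05 ± 0.17 in salivary tissue, 10.09 ± 0.07 in kidney, 7.86 ± 0.10 in brain and 7.54 ± 0.47 in liver. Stomach exceeded salivary tissue by 0.32 for Col6a2 (adjusted p = 0.0241) and by 0.66 for Col6a3 (adjusted p = 0.000285), and by 0.29 for Col6a1, which did not pass (adjusted p = 0.227).

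The minor fibrillar chains and the cartilage chains had other patterns. Col11a1 was highest in salivary tissue at 7.35 ± 0.23, above stomach (6.60 ± 0.20) by 0.75 (adjusted p = 0.00163, limma), and Col5a3 likewise at 7.27 ± 0.12, above stomach (6.47 ± 0.09) by 0.81 (adjusted p = 0.000215). Col2a1, the chain of type II collagen of cartilage, read 2.27 to 2.72 in 4 tissues and 5.40 ± 0.41 in kidney. All wild-type arrays of the other tissues were under a log2 level of 4, where signals are noisy and have no order. With such values set to 4, kidney was at least 1.40 above each. Setting values to 4 takes away their spread, so no p-value is given for this bound. Of the type IX chains, 1 Col9a1 probe set (1428571_at) read 8.03 ± 0.06 in salivary tissue, 1.91 above brain and 1.80 above kidney, but the gene's other probe set (1421381_a_at) read 6.54 in both brain and salivary tissue, so the 2 probe sets disagree on the highest tissue. Col9a3 was highest in salivary tissue at 5.80 ± 0.70 by its brightest probe set. Among 8 measured cartilage markers, none of them a collagen, the summed signal was also highest in wild-type salivary tissue, at 8.0 to 8.4 against 7.1 to 7.7 elsewhere; its part in these levels was not tested.

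Basement membrane chains divided the tissues differently. Col4a1 and Col4a2, the chains of the ubiquitous network, were both highest in kidney, at 11.39 ± 0.04 and 10.11 ± 0.11. The Col4a1 level exceeded salivary tissue by 0.25 (adjusted p = 0.0229, limma) and the Col4a2 level exceeded stomach, its next tissue, by 0.72 (adjusted p = 2.91e-05). The other Col4a1 probe set (1426348_at) placed kidney and salivary tissue level (difference -0.01, adjusted p = 0.971). Col4a3 and Col4a4, chains of the glomerular network, were also highest in kidney, at 6.36 ± 0.04 and 5.11 ± 0.44. Col4a3 exceeded stomach by 1.60 (adjusted p = 0.000507), and neither passed against salivary tissue (adjusted p = 0.0514 and 0.0811). Col4a4 was under 4 on all wild-type stomach arrays. With values under 4 set to 4, its kidney level was at least 1.11 above stomach and 0.93 above salivary tissue. These bounds have no p-value, since setting values to 4 takes away their spread. Col4a4 stayed below the 40th percentile of all probe sets in all 5 tissues. Col4a5 and Col4a6, which form the network of smooth muscle and epithelial basement membranes, were highest in stomach, at 9.09 ± 0.65 and 6.69 ± 0.12. Col4a5 did not separate stomach from kidney (0.69 ± 0.26, adjusted p = 0.0738), and Col4a6 did (0.84, adjusted p = 0.017). The multiplexin Col18a1, whose C-terminal fragment is endostatin, went against the low levels of most chains in liver: it read 10.42 ± 0.12 there, 10.06 ± 0.15 in kidney, 8.13 ± 0.30 in stomach, 7.30 ± 0.17 in salivary tissue and 7.08 ± 0.12 in brain. Its relative Col15a1 was lowest in liver, at 4.61 ± 0.12, against 7.47 ± 0.17 in stomach and 7.44 ± 0.10 in kidney.

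Chains of epithelial anchorage and of the fibre surface were more restricted. Col17a1 read 7.36 ± 0.34 in stomach and 6.42 ± 0.06 in salivary tissue and was under 4 on all wild-type arrays of the other tissues. Salivary tissue was thus at least 2.42 above each of them (values under 4 set to 4, a bound without a p-value). The summed signal of 5 keratinocyte markers was 11.7 to 12.1 in wild-type stomach and 8.7 to 9.0 in salivary tissue, and at most 7.5 elsewhere. Col7a1, which links the basement membrane to the fibres below it, read 7.29 ± 0.21 in salivary tissue and 7.14 ± 0.19 in stomach, a difference that did not pass (adjusted p = 0.684, limma), and was lower in the other 3. Col8a1 was a stomach chain, at 7.02 ± 0.12, 2.52 above kidney (adjusted p = 0.000611). Col16a1 was also highest in stomach at 7.72 ± 0.14. Col14a1, a FACIT of interstitial fibres, was present in 4 tissues, from 9.06 ± 0.19 in liver to 9.61 ± 0.16 in stomach, and low in brain at 5.82 ± 0.10, 3.23 under liver (adjusted p = 1.36e-11). Of the 19 genes with several probe sets, 10 named the same highest tissue by every probe set that passed, 6 named different ones (Col1a2, Col4a1, Col9a1, Col9a3, Col14a1 and Col20a1), and in 3 fewer than 2 probe sets passed.

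The order held in part on the null arrays, which are a separate set of samples. There 44 chain probe sets passed the F test (62.1% of all probe sets did), and the highest tissue was the same for 36 of the 48. Above each other tissue were 8, of which 7 in the same tissue as in wild type. The share of all probe sets above each other tissue was not computed on the null arrays, so this count cannot be set against wild type. Nor is the share of all probe sets that kept their highest tissue given, so the 36 are not shown to be particular to chains.

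**Figure D2:**
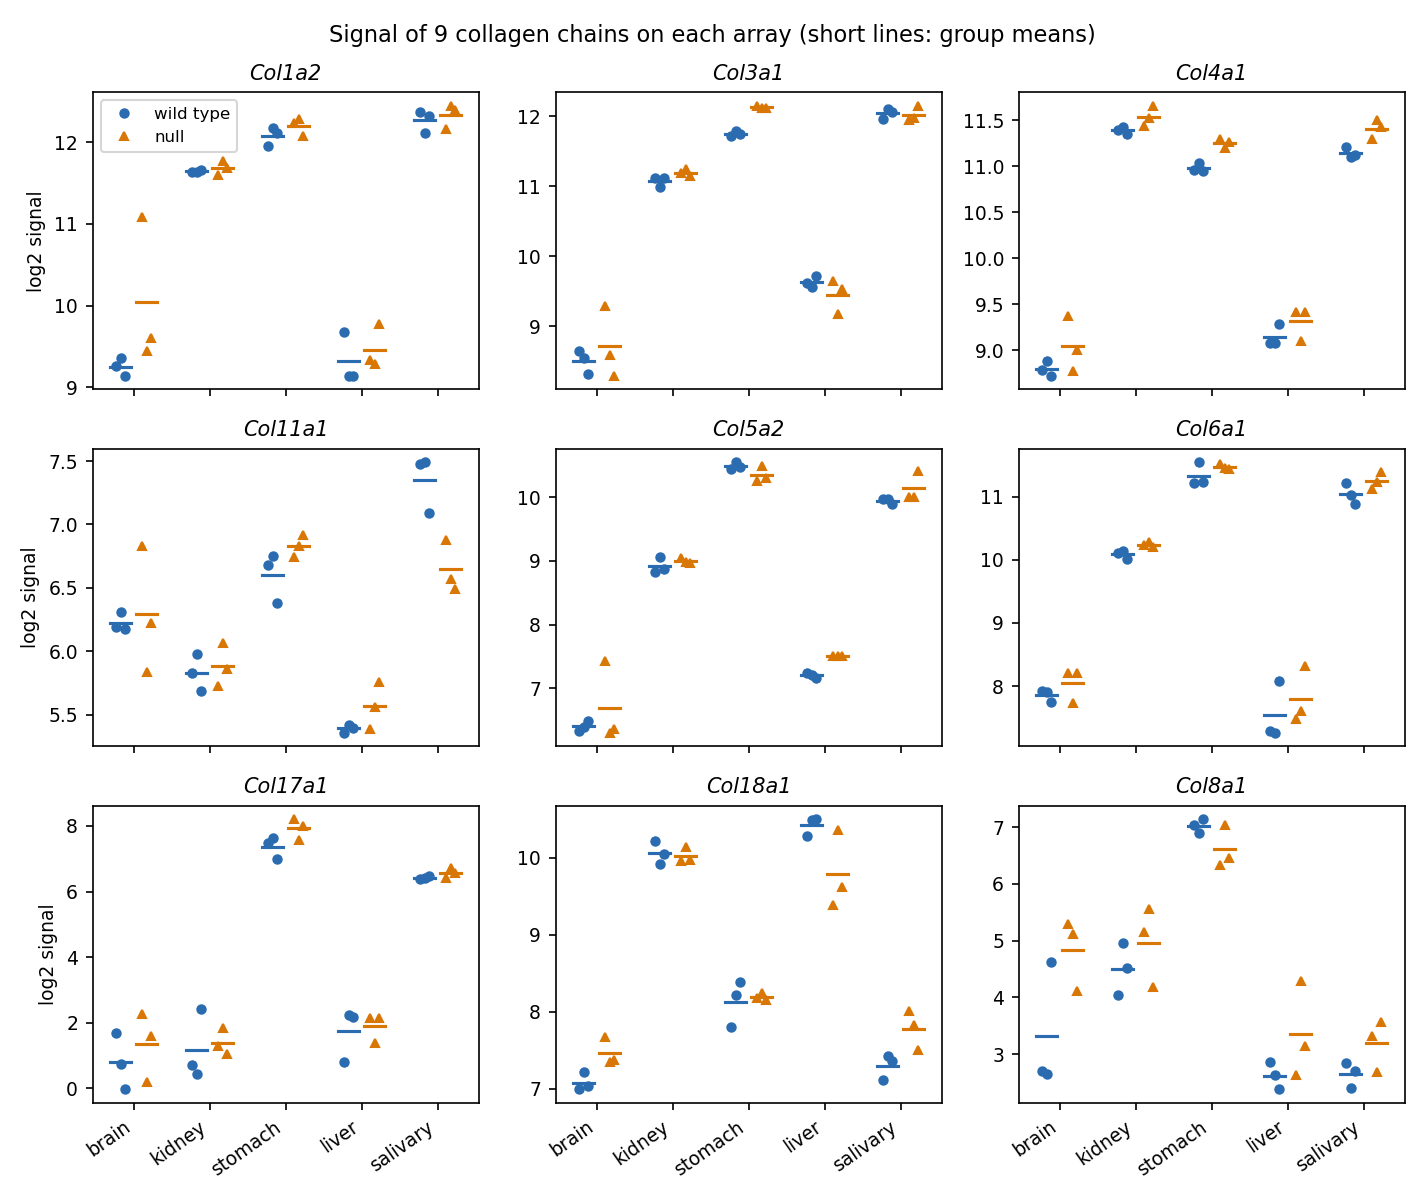
Log2 signal of 9 collagen chains on each of the 30 arrays by tissue; circles are wild-type arrays, triangles null arrays and short lines the means of 3 arrays. The tissues separate far more than the genotypes, and 1 null brain array is high for Col1a2, Col3a1 and Col5a2.

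The second question was whether loss of ERRγ changed the chains. Probe sets whose mean over a tissue's 6 arrays reached the 40th percentile (a log2 level of 5.25 to 5.39) were tested, which took in 43 of the 58 chain probe sets in at least 1 tissue and 25 in all 5. Col2a1, Col4a4, Col9a2, Col10a1, Col20a1 and Col22a1 were tested nowhere. In 176 tests over the 5 tissues, 5 passed an adjusted p of 0.05. The median difference, null minus wild type, lay between -0.03 in stomach and 0.17 in brain, beside 0.01 to 0.03 over all probe sets tested.

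**Figure D3:**
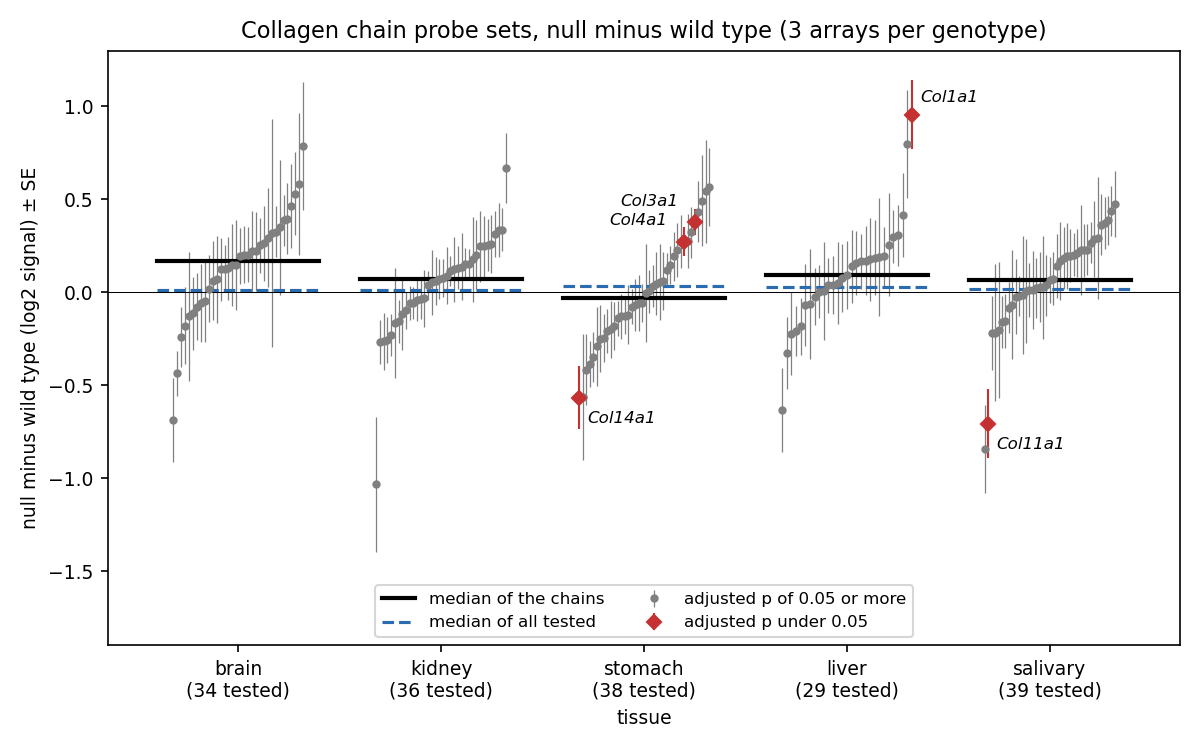
Null minus wild-type difference in log2 signal (± SE) of each chain probe set tested, by tissue and ordered by size; diamonds passed an adjusted p of 0.05, black bars are medians of the chains and dashed lines medians of all probe sets tested. The 5 calls are Col3a1, Col4a1 and Col14a1 in stomach, Col1a1 in liver and Col11a1 in salivary tissue.

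In stomach, 3 of 38 chain probe sets passed (7.89%), 2 higher and 1 lower, beside 23.5% of all probe sets (11.2% higher and 12.2% lower). The genotypes did not overlap in 9 (23.7%), beside 42.8% of all. Col3a1 rose: the null arrays read 12.15, 12.11 and 12.11 and the wild-type arrays 11.71, 11.79 and 11.74, a difference of 0.38 ± 0.07 (SE, adjusted p = 0.00796, limma), with no overlap. The gene's other probe set read 9.47, 9.83 and 9.85 on null arrays and 9.82, 9.95 and 9.58 on wild-type arrays, which overlap. Col4a1 rose by 0.27 ± 0.08 (adjusted p = 0.0365), from 10.96, 11.03 and 10.95 to 11.30, 11.20 and 11.26. Its partner Col4a2 did not pass, with a difference of -0.08. Col14a1 fell by 0.57 ± 0.17 (adjusted p = 0.0403), from 9.48, 9.79 and 9.56 to 8.78, 9.41 and 8.94, also without overlap. Its other probe set (1428455_at) differed by -0.12. That probe set read 7.65, 7.92 and 8.01 on wild-type arrays and 7.61, 8.02 and 7.59 on null arrays, which overlap. Not passing were 1 Col1a2 probe set (-0.39, adjusted p = 0.0502), Col17a1 (0.57, adjusted p = 0.0809) and Col16a1 (-0.35, adjusted p = 0.0889). One Col5a1 probe set (1416741_at) lay under the filter and read 5.83, 4.97 and 6.60 on wild-type arrays and 3.30, 3.58 and 3.20 on null arrays (at least 1.80 lower with values under 4 set to 4, which did not pass, adjusted p = 0.0777 where no filter was applied); the gene's brightest probe set read 10.01, 10.38 and 10.21 on wild-type arrays and 10.23, 10.29 and 10.18 on null arrays. Of 12 genes with several probe sets tested in stomach, 8 had probe sets that differed in opposite directions, against 1 of 8 in liver, 3 of 10 in brain, 3 of 12 in salivary tissue and 5 of 11 in kidney. These counts include differences near 0, such as Col6a2 in stomach (-0.13 and 0.007). The share over all genes with several probe sets is not given, so the counts are not shown to be particular to chains.

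These stomach calls depended on the arrays and the scaling used. Col3a1 passed whichever single array was left out (adjusted p from 0.0143 to 0.0397), whereas Col4a1 and Col14a1 each passed only when null stomach array 2 was left out and lost the call when any other array was (adjusted p up to 0.131 and 0.118). Without null array 2, 7 chain probe sets passed, counting rises and falls. Of all probe sets 14% were lower in that fit, and the share in either direction is not given. With the control gap of RNA integrity or the albumin level as a covariate 0 chain probe sets passed in either direction. There 0.0147% and 2.28% of all probe sets were lower, shares that leave out rises. Leaving out both wild-type arrays of high hepatocyte signal left 1 wild-type array, so no count is given. Under quantile normalization the Col3a1 and Col4a1 differences were 0.15 and 0.14 and neither passed, while Col14a1 did. The part of RNA integrity and of liver tissue in these differences was not tested beyond those fits.

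Some enzymes that modify and fold collagen were lower in null stomach. Of 15 such genes measured, all tested there, 7 were lower in null stomach and none higher, with a median of -0.45, beside 12.2% lower and a median of 0.03 over all probe sets. They were the prolyl 4-hydroxylase subunits P4ha1 (-0.63), P4ha2 (-0.62) and P4hb (-0.45), the lysyl hydroxylase Plod3 (-0.86), and the prolyl 3-hydroxylase family and its partner P3h3 (-0.63), P3h4 (-0.58) and Crtap (-0.84), with adjusted p from 0.00496 for Crtap to 0.0325 for P3h4 (limma). Crtap read 8.79 to 9.04 in wild type and 7.95 to 8.32 in null. None of the 7 had overlapping groups, which adds no support, since they were picked by passing on the same arrays. Of all probe sets tested in stomach, 42.8% had groups that did not overlap. The chaperone Serpinh1 (0.09), the lysyl hydroxylases Plod1 (0.01) and Plod2 (0.18) and the transport factor Mia3 (0.37) did not pass. The count was 3 without either wild-type array 2 or 3 (7.21% and 6% of all probe sets lower) and 4 without null array 3 (6.92%). It was 0 with the RNA integrity gap or albumin as a covariate, where only 0.0147% and 2.28% of all probe sets were lower. Leaving out both of those wild-type arrays left 1 wild-type array, so only the median of -0.34 is given. The median stayed between -0.70 and -0.34 over these settings. In the same comparison 9 of 9 proliferation markers were lower with a median of -1.36, whose part was not tested.

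**Figure D4:**
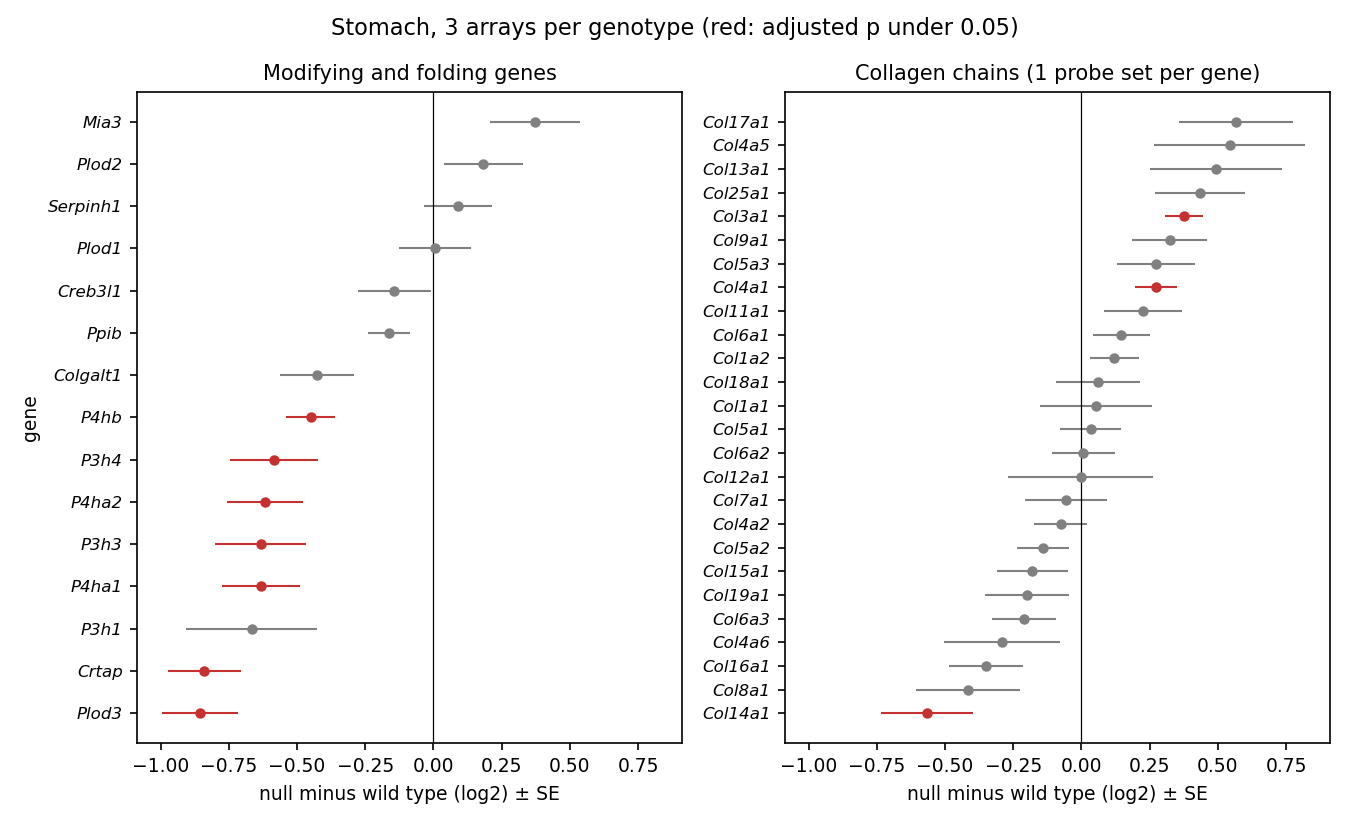
Null minus wild-type difference in log2 signal (± SE, 3 arrays per genotype) in stomach for 15 genes of collagen modification and folding (left) and for 26 collagen chains, 1 probe set per gene (right); red points passed an adjusted p of 0.05. Red points on the left are all below 0, while the chains spread to both sides of 0.

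Other genes of the collagen pathway in stomach are given beside the 23.5% of all probe sets that passed there (11.2% higher and 12.2% lower). Of 16 collagen-binding matrix genes tested, the small leucine-rich proteoglycans Bgn (-0.62) and Lum (-0.99) fell, while Aspn (0.81), of the same family, and Dpt (0.43), dermatopontin, rose. Of 5 processing and crosslinking genes, Pcolce, the enhancer of procollagen C-proteinase, fell by 0.54. Of 12 degradation genes, Ctsk, the collagen-cleaving cathepsin K, and Prep, a peptidase that cuts after proline, fell by 0.54 and 0.98. Of 12 basement membrane partners, the laminin chains Lamb3 and Lamc1 fell by 0.60 and 0.72. Of 12 genes of the TGF-β pathway, a main inducer of fibrillar collagen, Smad4 (1.20), Ltbp1 (0.63) and Ccn2 (0.65) rose and none fell. None of 4 collagen receptors passed. The stomach arrays' RNA integrity gap and hepatocyte signal, given above, moved with genotype here too, and their part in these list members was not tested.

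In liver, 1 of 29 chain probe sets passed (3.45%), beside 6.93% of all (3.47% higher and 3.46% lower), and 5 had groups that did not overlap, beside 27.9% of all. Col1a1 rose by 0.96 ± 0.19 (adjusted p = 0.0193, limma), from 6.82, 7.20 and 7.15 on the wild-type arrays to 7.99, 7.77 and 8.28 on the null arrays, with no overlap. Its type I partner Col1a2 did not pass, reading 9.68, 9.14 and 9.14 on wild-type arrays and 9.33, 9.28 and 9.77 on null arrays. A second Col1a1 probe set was under the filter, at 1.16, 1.33 and 1.31 on wild-type arrays and 3.81, 2.19 and 2.34 on null arrays. The Col1a1 call was kept only without null liver array 2 (when 3 chains passed) and was lost when any other array was left out, with adjusted p up to 0.0725. In liver the null arrays also lay apart from the wild-type arrays in the summed signal of endothelial markers (10.06 to 10.28 against 9.62 to 9.89) and erythroid markers (12.31 to 12.48 against 12.01 to 12.21). Among the erythroid markers only Alas2 passed (0.51), while Epb42 (0.40), Slc4a1 (0.27), Klf1 (-0.14) and Hba-a1 (-0.63) did not. The sum of the leptomeningeal list was lower (8.01 to 8.36 against 8.84 to 9.25). In that list only Slc6a13 passed (-1.10), Ptgds (-0.48) and Foxc1 (0.17) did not, and Aldh1a2, Slc22a6 and Zic1 lay under the filter. The part of these markers was not tested. Col4a3 (0.80, adjusted p = 0.139) and Col5a2 (0.30, adjusted p = 0.244) did not pass, nor among negative differences did 1 Col5a1 probe set (-0.21, adjusted p = 0.406). Col18a1, highest in liver among the tissues, read 10.28, 10.49 and 10.50 on wild-type arrays and 9.39, 10.36 and 9.62 on null arrays (-0.63 ± 0.23, adjusted p = 0.131), with null array 2 inside the wild-type range, and its other probe set gave -0.33 (adjusted p = 0.357). Among its pathway genes, Pcolce and Pcolce2 fell (by 0.73 and 2.77, 2 of 5 tested), as did the cyclophilin Ppib (by 0.74, 1 of 12), and the inhibitor of matrix proteases Timp3 (1.04, 1 of 10) and the basement membrane ligand Npnt (1.65, 1 of 8) rose.

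In salivary tissue, 1 of 39 chain probe sets passed (2.56%), beside 8.22% of all (3.5% higher and 4.72% lower), and 10 had groups that did not overlap, beside 28.2% of all. Col11a1 fell by 0.71 ± 0.18 (adjusted p = 0.0476, limma), from 7.48, 7.49 and 7.09 to 6.88, 6.57 and 6.49. The gene's other probe set did not pass, at -0.84 (adjusted p = 0.0627), at 6.00, 6.64 and 6.39 on wild-type arrays and 5.66, 5.55 and 5.29 on null arrays, and neither pair of groups overlapped. The call was kept without wild-type array 3 and lost when any other array was left out (adjusted p up to 0.190). Col4a2 (0.44, adjusted p = 0.0853), the second Col4a1 probe set (0.39, adjusted p = 0.108) and Col18a1 (0.48, adjusted p = 0.14) did not pass, nor did Col9a1 (-0.16, adjusted p = 0.542). Thbs2 (0.64) among 16 matrix genes, Timp3 (0.88) among 13 degradation genes, and Smad4 (0.76) and Ccn2 (1.06) among 13 TGF-β pathway genes rose. Cartilage markers summed to 8.0 to 8.4 in wild type and 8.1 to 8.2 in null. All 9 proliferation markers were lower on the null arrays (median -1.40); the part of these and of the muscle and brown fat transcripts in the Col11a1 difference was not tested. Wild-type array 3, without which the call was kept, was the wild-type array of high brown fat signal.

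In kidney, 0 of 36 chain probe sets passed the limma test, beside 0.781% of all. The genotypes did not overlap in 10, beside 20% of all. Col13a1, a transmembrane chain, read 5.31, 5.76 and 5.69 on wild-type arrays and 6.49, 6.11 and 6.17 on null arrays (0.67, 95% interval 0.25 to 1.09, adjusted p = 0.145). One Col1a1 probe set read 8.32, 8.39 and 8.05 on wild-type arrays and 7.57, 7.93 and 6.16 on null arrays (-1.03, adjusted p = 0.233), while the other differed by 0.25. Col5a2 (0.34), Col16a1 (0.31), 1 Col14a1 probe set (-0.27) and 1 Col4a5 probe set (-0.26) did not pass either, with adjusted p from 0.219 to 0.370. Col4a1 and Col4a2, highest in kidney among the tissues, differed there by 0.15 and -0.06. Ccn2, a matrix protein induced by TGF-β, rose by 1.3 ± 0.15 (adjusted p = 0.0111), the only call among 12 TGF-β pathway genes tested there, and no other pathway list held one.

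In brain, 0 of 34 chain probe sets passed, beside 0% of all, and 6 had an unadjusted p under 0.05 (limma), beside 10.5% of all. The chains' median of 0.17 came with 1 array. Col1a1 read 9.25 on null array 1 and 6.43 and 6.37 on the other null arrays, beside 7.11, 6.84 and 7.14 in wild type. Col1a2 read 11.08, 9.44 and 9.60 on null arrays and 9.26, 9.36 and 9.14 on wild-type arrays. Array 1 was the highest of the 3 null arrays for 30 of the 34 chain probe sets, with a median of 0.41 above the wild-type mean, against -0.05 and 0.08 for arrays 2 and 3. Its whole-array median was also the highest, at 6.07, beside 5.89 and 5.99 on null arrays 2 and 3 and 5.95 to 6.01 in wild type. The share of all probe sets that were highest on array 1 is not given. Without it the chains' median was 0.02 and again 0 passed, 4 with an unadjusted p under 0.05 (11.4% of all). The same array read 11.31 for growth hormone (Gh), where the other 5 brain arrays read 4.16 to 5.07, and its skeletal muscle marker sum was 10.2 against 6.9 to 7.2 and its salivary marker sum 8.1 against 4.9 to 5.7; Pomc and Cga, other pituitary hormone genes, read 8.07 and 7.13 there (Gh, Pomc and Cga were named after their values were seen). The salivary sum rested on Bpifa2 (up to 7.99 on null brain arrays), while Aqp5, Dcpp1 and Prol1 reached at most 0.87, 2.3 and 4.04 there. The type I chains were thus high on an array that also carried pituitary and muscle transcripts and Bpifa2, whose part was not tested.

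**Figure D5:**
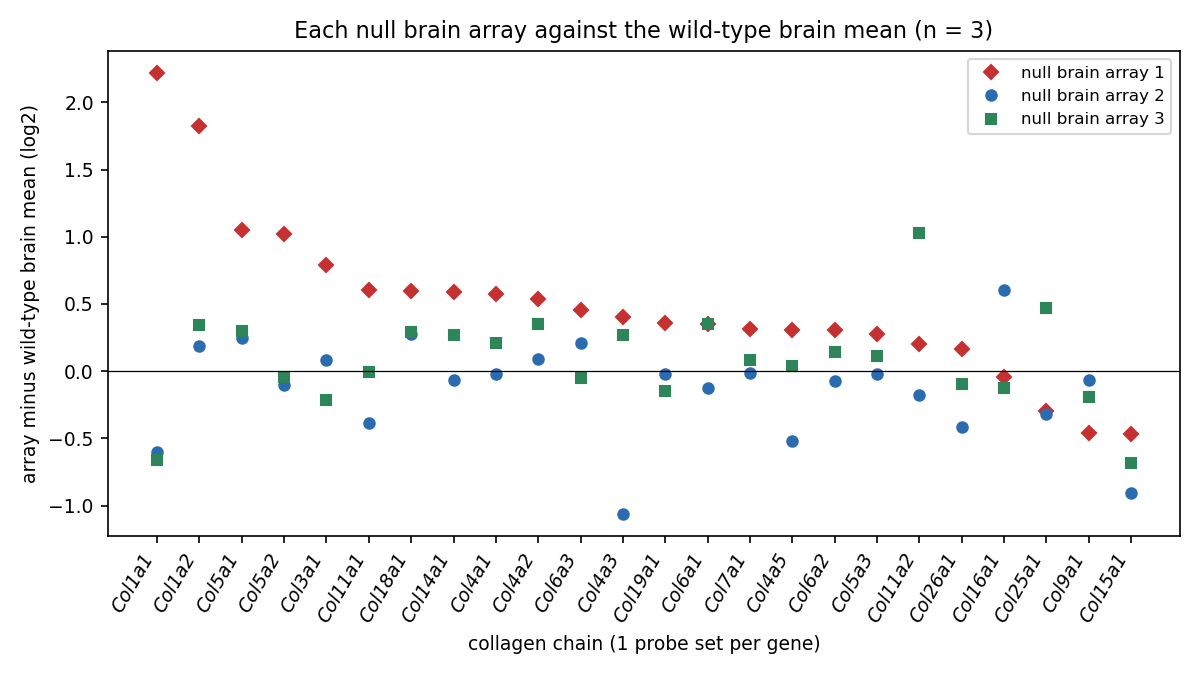
Each null brain array's log2 signal minus the mean of 3 wild-type brain arrays, for 24 collagen chains ordered by array 1. Array 1 lies between 0.79 and 2.22 for Col1a1, Col1a2, Col5a1, Col5a2 and Col3a1, where arrays 2 and 3 lie between -0.66 and 0.35.

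Some brain chains were separated between the genotypes on all 6 arrays without passing. Col15a1 read 6.05, 5.77 and 5.54 on wild-type arrays and 5.32, 4.88 and 5.10 on null arrays (-0.69 ± 0.23, 95% interval -1.19 to -0.18, adjusted p = 0.391). The second Col4a1 probe set (1426348_at) read 7.86, 7.97 and 7.84 on wild-type arrays and 7.56, 7.46 and 7.34 on null arrays (-0.44, adjusted p = 0.373), and the first read 8.78, 8.88 and 8.72 against 9.37, 8.77 and 9.0 (0.25). Col18a1 (0.39), Col4a2 (0.33) and Col5a1 (0.53) had the smallest p among positive differences and Col9a1 (-0.24) followed among negative ones, with adjusted p from 0.4 to 0.615. In all, 5 chain probe sets had groups that did not overlap (14.7%, beside 15.7% of all).

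Further tests took the tissues together. The genotype difference itself varied between tissues for 2 of 34 chain probe sets tested, beside 18.2% of all. One was the second Col4a1 probe set (adjusted p = 0.00802, limma F test), whose difference was 0.39 in salivary tissue, 0.19 in stomach, 0.07 in kidney, 0.04 in liver and -0.44 in brain; the gene's other probe set gave 0.929. The other was Col18a1 (adjusted p = 0.0163), whose difference was 0.48 in salivary tissue, 0.39 in brain, 0.06 in stomach, -0.04 in kidney and -0.63 in liver. The first call was lost without brain (adjusted p = 0.358), and the second without liver (0.192) and without null liver array 1 (0.0542). The fit takes the 30 arrays as independent. With the arrays of 1 genotype and number as a random block 3 chain probe sets passed, these 2 among them, but leaving out a number in all 5 tissues gave 0 to 4. The Col4a1 call was then lost without wild-type number 2 (0.0559) and without number 3 (0.0683), and the Col18a1 call was kept only without null number 2 (adjusted p otherwise 0.0575 to 0.182).

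Averaged over the 5 tissues, 4 of 34 chain probe sets were higher in null and 0 lower, beside 13.6% of all probe sets higher and 27.1% passing in either direction. The chains' median was 0.10 and that of all probe sets 0.02. Col4a1, by its brightest probe set, rose by 0.22 ± 0.05 (adjusted p = 0.00159, limma) and was positive in each tissue, at 0.27 in stomach and in salivary tissue, 0.25 in brain, 0.17 in liver and 0.15 in kidney. This was the call that held in all 30 fits that left out 1 array (adjusted p up to 0.00351) and in all 10 other settings (up to 0.0183). The gene's second probe set did not pass (0.05 ± 0.05, adjusted p = 0.50), and its brain difference had the opposite sign, so the rise rests on 1 probe set. Col4a2 rose by 0.16 (adjusted p = 0.0385) with values from -0.08 in stomach to 0.44 in salivary tissue. One Col5a2 probe set (0.16, adjusted p = 0.0367) and Col5a3 (0.16, adjusted p = 0.0497) also passed. These 3 calls were lost in 18, 16 and 21 of the 30 fits that left out 1 array. They were also lost where the arrays of 1 genotype and number were taken as linked, as a random block (adjusted p from 0.0563 to 0.0739; 23.2% of all passed) or as 1 mean over the 5 tissues (0.143 to 0.214; 13% of all). Col4a1 kept its call in both (0.00346 and 0.0341) and without each genotype's number in all tissues (up to 0.0191). Its means over the tissues were 10.57, 10.42 and 10.55 for the null numbers and 10.28, 10.30 and 10.28 for the wild-type numbers, which do not overlap.

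Within groups, selected pairs of chains varied together to different degrees, and not every pair assembles into 1 molecule. Deviations of the 30 arrays from their group means were compared for 9 pairs of chains, with arrays permuted within groups. Col4a1 and Col4a2 had Pearson's r = 0.75 (permutation p = 0.00272, adjusted over the 9 pairs 0.0245) and Spearman's rho = 0.64 (p = 0.00422); r was 0.67 without the 2 farthest arrays and 0.72 without null brain array 1. Col6a1 and Col6a2 had r = 0.52 (permutation p = 0.00715, adjusted 0.0322) and rho = 0.57 (p = 0.00663), with r = 0.63 without the 2 farthest. For Col1a1 and Col1a2, r was 0.83 (permutation p = 0.0485, adjusted 0.143) and rho 0.48 (p = 0.0464), with 0.53 without the 2 farthest arrays and 0.23 without null brain array 1. The other 6 pairs had r from 0.12 to 0.74 and adjusted p from 0.143 to 0.717. Both chains of a pair are read from the same array and share its RNA and hybridisation.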

How the data were processed

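Expression was measured on 30 arrays of 10 groups, 3 per group. The authors deposited log2 signal values, made with MAS5 per the submitters' processing notes; its version and scaling were not given in the sources used, and the values were used as deposited, so signals near the array background are noisy. Symbols came from the array annotation, which gave 20380 probe sets 1 symbol, 691 several and 1555 none; 64 control probe sets were left out. Tests were those of limma 3.58.1 (R 4.3.3; moderated variances following the mean level), p-values were adjusted by Benjamini-Hochberg over all probe sets tested, and the scripts were tested on simulated data. Genotypes were compared within each tissue over 6 arrays, for probe sets whose mean reached the 40th percentile. Tissues were compared over 15 wild-type arrays without a filter. The variation and average of the genotype difference were fitted over 30 arrays. A gene with several probe sets is represented by the one with the highest mean. Named were chains with adjusted p under 0.05, or the 3 smallest p in a direction where fewer passed, and up to 20 chains by tissue; lists were named by up to 4 passing members. The members and lists were chosen with earlier results of these data known. Replicate numbers were not used as a block. Alternatives changed the filter, a floor of 4 on log2 values, normalization, arrays fitted, the block, an RNA integrity (Gapdh) or albumin covariate, the variance trend and each array; enzyme alternatives, brain values without null array 1, fits with genotype and number linked (block correlation 0.037) and lower bounds against the floor were added after seeing the data. The number of arrays limits the precision.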

Additional observations from a re-analysis of the deposited data

Results flagged for a closer look

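For 2 chain probe sets the difference between null and wild type varied between tissues in limma's F test of the difference itself. The Col4a1 probe set 1426348_at had an adjusted p of 0.00802, with the lowest difference in brain (-0.44) and the highest in salivary tissue (0.39). The Col18a1 probe set 1426955_at had an adjusted p of 0.0163, with the lowest difference in liver (-0.63) and the highest in salivary tissue (0.48).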

How the results depend on the processing

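In stomach, where 3 chain probe sets passed, 1 passed in the fit over 30 arrays and without the mean-variance trend. With the Gapdh gap or albumin as a covariate 0 passed in either direction, where 0.0147% and 2.28% of all probe sets were lower (rises left out). For Col17a1, null minus wild type, stomach, the difference turned from 0.57 to -0.0118 with the Gapdh gap. In liver the 1 call became 0 with the Gapdh gap. In salivary tissue the 1 call became 0 with no filter, with the replicate block, with the Gapdh gap and without the trend, and 3 in the fit over 30 arrays. The 7 lower enzymes of null stomach became 0 with the Gapdh gap and with albumin, beside the same small shares of all probe sets. The 22 chain probe sets above each other tissue were 8 on the null arrays, where the share of all probe sets was not computed. The 4 average calls became 2 with no filter, with the Gapdh gap and without salivary tissue and 1 with genotype and number as a random block or as a mean over tissues, and the 2 calls of variation between tissues became 4 without brain. The cause was not tested. Leaving out 1 array gave 0 calls in brain and in kidney each time, 1 to 7 in stomach, 0 to 3 in liver, 0 to 1 in salivary tissue, 3 to 9 enzymes, 46 to 50 chains differing between tissues, 19 to 24 above each other tissue, 1 to 5 varying between tissues and 1 to 7 on average, and leaving out a genotype's number in all tissues 0 to 4 and 1 to 5. Arrays with the same replicate number did not vary together between genotypes (correlations from -0.24 to 0.14). Between tissues of 1 genotype they did in part: of 60 such correlations 49 were above 0 (median 0.08), and for null kidney and liver they were 0.23, 0.12 and 0.20 against -0.20 to -0.002 for other numbers. With the replicate block, 2 chains passed in stomach, 1 in liver and 0 in brain, kidney and salivary tissue. For these chain counts, with the block or with arrays left out, the share of all probe sets is not given. The changes in the counts are therefore not shown to be particular to the chains. Among the 5 calls within tissues, none held under all settings run.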
